A study of Mus musculus with 30 samples.

Results

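The SLC25 mitochondrial carriers were followed in RNA from adult mouse brain endothelial cells (ECs), taken straight from the tissue or after culture. The members were all genes whose symbol is Slc25a followed by a number and nothing else, which gave 47 of the 54393 genes in the deposited tables. The rule used the symbol alone and no measured value. Carriers of the same fold with other symbols, such as the uncoupling proteins Ucp1 to Ucp3 and the Mtch proteins, are not members and are described with the neighbouring pathways.

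SLC25 proteins sit in the inner mitochondrial membrane, which is otherwise closed to charged metabolites, and most exchange a molecule in the matrix for a molecule outside it. They bring ADP and phosphate to the ATP synthase, pass reducing equivalents inward through the malate-aspartate shuttle, and move citrate, amino acids, acylcarnitines, iron and cofactors such as NAD, coenzyme A and folate. They are made on cytosolic ribosomes and inserted by the TIM22 import complex. A few work elsewhere, Slc25a17 in the peroxisome and Slc25a46 on the outer mitochondrial membrane.

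RNA was sequenced in 14 libraries of 4 groups from adult male brain. Cells of Tie2-GFP mice, in which the Tie2 promoter drives GFP in ECs, were sorted by flow cytometry into GFP-positive cells (acute ECs, 2 libraries) and GFP-negative cells (2 libraries), with cerebrum and cerebellum data combined as whole brain. WT cultures (6 libraries) were grown for 8 days, with puromycin over the first days to select ECs, and came from 3 experiments of 2 wells each: C57BL/6J mice by isolation method A (replicates 1 and 2, 36 cycles per read), Ctnnb1 flex3/+; Tie2-GFP mice without Cre by method B (replicates 3 and 4, 150 cycles), and the same genotype and method again (replicates 5 and 6, 36 cycles). Cultures with stabilized beta-catenin (4 libraries, 36 cycles) came from mice carrying Ctnnb1 flex3/+, Pdgfb-CreER and Tie2-GFP together, by method A (replicates 1 and 2) or method B (replicates 3 and 4). The method of each well is as the study's methods text gives it; a legend there assigns WT wells 5 and 6 to method A, so every split by method below rests on the methods text. The 150-cycle wells were also sequenced at another facility. In the mice of the stabilized cultures, the Pdgfb promoter drives a 4-hydroxytamoxifen-activated Cre in ECs. Cre removes the exon of Ctnnb1 whose loss keeps beta-catenin from being degraded. The control and stabilized mice were given 4-hydroxytamoxifen as pups. Each experiment pooled several brains and its wells served as replicates, so p-values below measure the spread between wells more than that between mice. Open chromatin was measured by ATAC-seq in acute ECs (2 libraries), WT cultures (6) and stabilized cultures (2). Of the ATAC libraries, WT 1 and 2 were from C57BL/6J mice by method A, WT 3 to 6 from Ctnnb1 flex3/+; Tie2-GFP mice by method B, and both stabilized ones, unlike the RNA wells of the same number, by method B. For method A the control strain and the stabilized genotype differ in background as well, and the sorted and cultured cells were read at different lengths (75 cycles against 36 or 150), so these cannot be told apart from the conditions.

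The RNA libraries held between 24284843 and 94686456 estimated counts. TPM is the abundance of a transcript per length and depth, here over nuclear protein-coding genes unless called deposited. Summed endothelial markers (5 of 5 found) lay between 3269 and 4809 TPM in acute ECs and between 1627 and 4161 in WT cultures. They lay between 2295 and 5378 in stabilized cultures and between 9.24 and 59.1 in GFP-negative cells. Acute ECs also held pericyte marker RNA (5 of 5, sum 1237 to 1621), which lay between 3.19 and 12.3 in WT cultures. Hemoglobin and other erythroid RNA (5 of 5) stood at 16892 and 101404 in acute replicates 1 and 2. It lay between 0 and 2.45 in WT cultures, with Hbb-bt and Alas2 under 3 counts in every library. Astrocyte markers (5 of 5) summed to 1444 and 187 in the acute replicates. They summed to 9.5 to 48.6 in WT cultures, with Aqp4 under 3 counts in every library. The acute libraries thus differed from each other in both marker sums. Smooth muscle markers (4 of 4) ran the other way in part, at 529 to 723 in acute ECs and 1095 to 7594 in WT cultures. Ctnnb1, the targeted gene, had CPM (counts scaled to library size) of 2090 to 2994 in acute ECs, 753.1 to 1698 in WT cultures and 1080 to 1333 in stabilized cultures. A sum over the gene does not show which transcripts lack the removed exon, so it does not check the label. The study itself reported RNA reads that skip this exon in every stabilized well and in no WT well.

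In all groups a few carriers of energy exchange held a large part of the family's TPM. Levels between genes are given here in TPM rescaled over nuclear protein-coding genes. All transcripts of a gene were counted, including those that encode no full protein. The 47 carriers together made up 3120 ± 223 TPM (SD, n = 2) in GFP-negative cells, 1995 ± 24.5 (n = 2) in acute ECs, 2348 ± 337 (n = 6) in WT cultures and 2240 ± 78.7 (n = 4) in stabilized cultures. The phosphate carrier Slc25a3 and the ADP/ATP carriers Slc25a4 and Slc25a5 held 45.8% ± 0.212 (n = 2) of that sum in acute ECs, 53.7% ± 4.30 (n = 6) in WT cultures, 56.2% ± 2.53 (n = 4) in stabilized cultures and 62.9% ± 2.08 (n = 2) in GFP-negative cells. A mean of at least 1 TPM was reached by 36 members in acute ECs, 38 in either culture and 41 in GFP-negative cells. A mean of at least 100 TPM was reached by 6 members in acute ECs and in GFP-negative cells, 5 in WT cultures and 4 in stabilized cultures.

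By the mean of the 4 group means, the 6 highest members were Slc25a3, Slc25a5, Slc25a4, Slc25a39, Slc25a11 and Slc25a1. In acute ECs their mean TPM was 463 for Slc25a3, 288 for Slc25a5, 163 for Slc25a4, 147 for the glutathione carrier Slc25a39, 135 for the citrate carrier Slc25a1 and 58.4 for the oxoglutarate-malate carrier Slc25a11. Within single groups the order differed. Slc25a24 had 185 TPM in acute ECs, from 40.3 and 329 in the 2 libraries. Slc25a12, an aspartate-glutamate carrier, had 193 in GFP-negative cells. Part of the TPM of these genes was assigned to transcripts that encode no full protein, and the order counts them. Protein-coding transcripts held 23.1% to 53.0% of Slc25a3 TPM in acute ECs, 14.7% to 18.3% in GFP-negative cells and 91.2% to 99.9% in WT cultures. They held 3.73% to 37.7% of Slc25a24 TPM in acute ECs and 5.37% to 11.0% of Slc25a12 TPM in GFP-negative cells. In WT cultures Slc25a5 (454 TPM), Slc25a4 (412) and Slc25a3 (397) stood close together, followed by Slc25a39 (232), Slc25a11 (108) and Slc25a1 (90.7). At the other end, the ADP/ATP carrier Slc25a31, the ornithine carrier Slc25a2 and the orphans Slc25a34 and Slc25a54 stayed under 1 CPM in every culture library, Slc25a41 was at 0 outside GFP-negative cells, and Slc25a48 was at 0 in all 14 libraries.

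**Figure D1:**
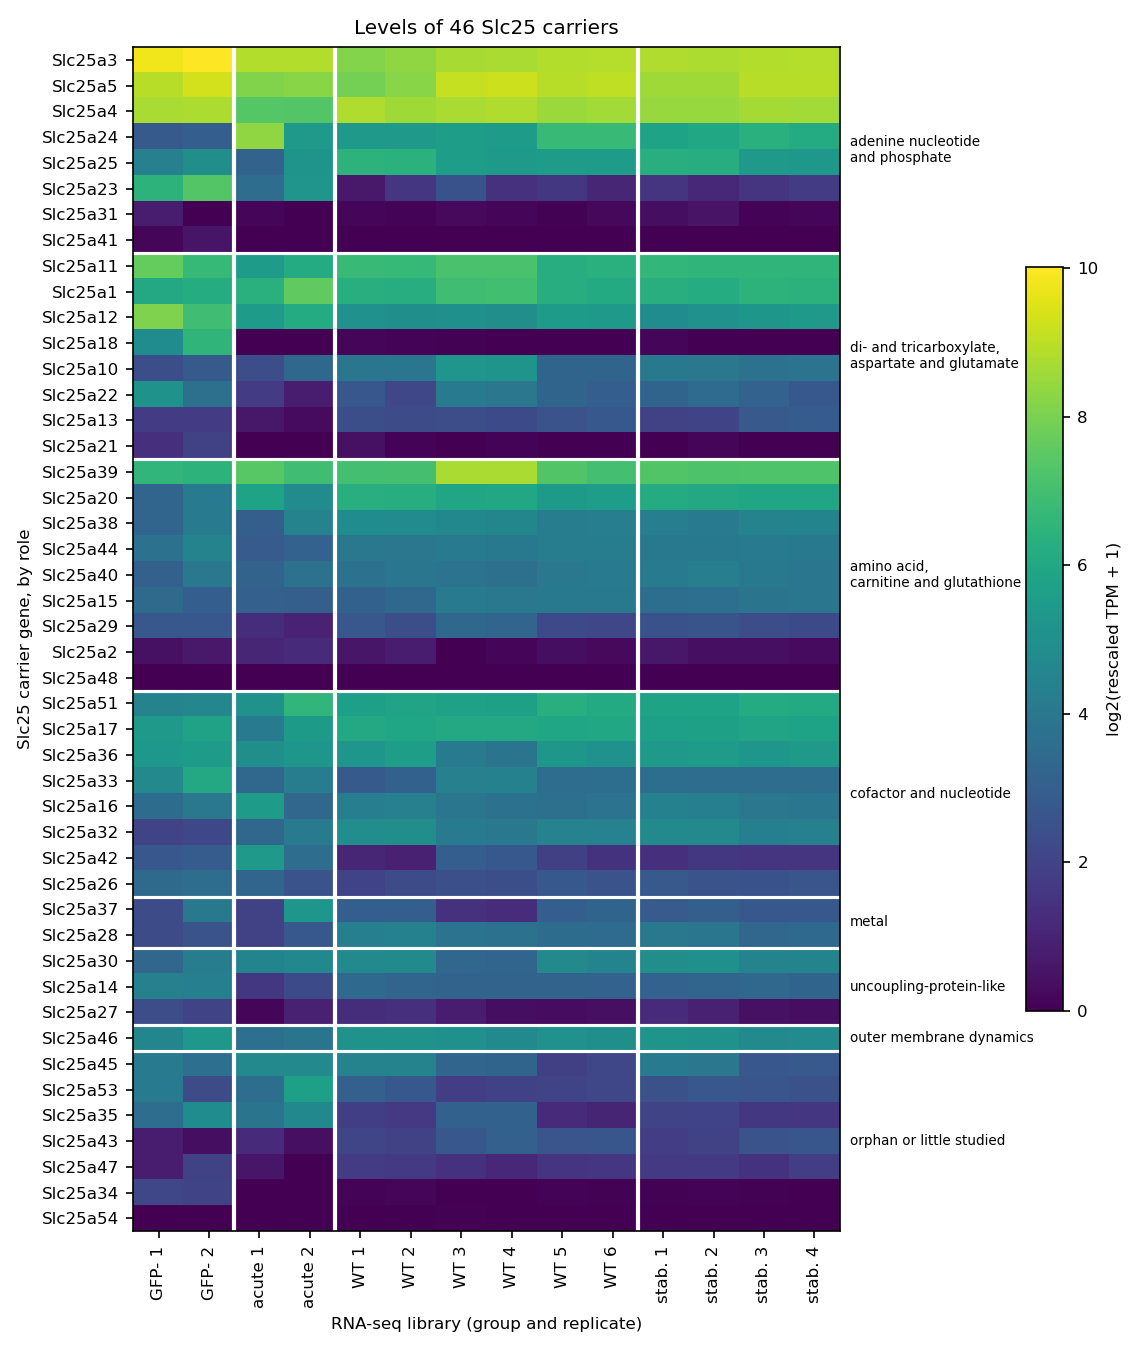
Level of 46 SLC25 carriers (rows, ordered by substrate group) in the 14 RNA libraries (columns, ordered by group), as log2 of rescaled TPM plus 1. The rows of Slc25a3, Slc25a4 and Slc25a5 are high in all libraries, and Slc25a18 and Slc25a23 are high in the GFP-negative libraries and low in the cultures.

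Per gene across libraries, values are given in CPM after scaling for library composition. Slc25a3 had 256 and 188 CPM in acute replicates 1 and 2, 170, 199, 365, 391, 332 and 351 in WT wells 1 to 6, 253, 233, 329 and 334 in stabilized wells 1 to 4, and 305 and 308 in GFP-negative cells. Slc25a5 had 213 and 219 in acute ECs, 136, 157, 420, 481, 295 and 325 in WT wells, 175, 171, 291 and 291 in stabilized wells, and 240 and 350 in GFP-negative cells. Both genes were lower in the wells of method A than in those of method B, in either genotype, and the WT and acute ranges overlapped. Slc25a39 had 74.2 and 59.7 CPM in acute ECs, 99.6, 103, 326, 347, 109 and 107 in WT wells, 116, 102, 131 and 129 in stabilized wells, and 33.5 and 33.8 in GFP-negative cells. Its WT wells lay above both acute libraries, and the pair read with 150 cycles stood apart from the rest. Slc25a11 ranged from 42.0 and 54.8 in acute ECs to between 68.2 and 144 in WT wells (median 79.7), and Slc25a1 from 47.7 and 74.4 to between 57.8 and 114 (median 68.2).

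WT cultures against acute ECs asks what culture changes in a brain EC. A gene was called where edgeR's quasi-likelihood test gave a Benjamini-Hochberg adjusted p under 0.05 over all genes, the fold was over 2, and the deposited TPM reached 5 in each replicate of the higher group. Nuclear protein-coding genes summed to 322523 and 405304 deposited TPM in acute replicates 1 and 2 and to 353717 to 943325 in WT wells. The TPM minimum was thus not equally strict in all libraries. Of 13798 genes tested, 13.5% were called higher and 10.2% lower in culture. Of the 40 members tested, 3 were called higher (Slc25a17, Slc25a25 and Slc25a4) and 1 lower (Slc25a51), a smaller share than over all genes in either direction, with no test of that difference. The remaining 7 members (Slc25a18, Slc25a21, Slc25a31, Slc25a34, Slc25a41, Slc25a48 and Slc25a54) had too few counts to be tested.

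Slc25a4, the ADP/ATP carrier typical of heart and muscle (mm10 chr8:46206797-46211284, minus strand), had 194 and 166 CPM in acute ECs and 363, 334, 421, 477, 349 and 404 in WT wells 1 to 6. All WT wells lay above both acute libraries. Its log2 fold change was 1.11 ± 0.29 (SE; adjusted p = 0.0142), just inside the 2-fold limit, and without acute replicate 2 it was 0.98 with an adjusted p of 0.0825. It also lost the call with the wells of each experiment summed (adjusted p = 0.106). With protein-coding transcripts alone it passed the adjusted p but fell under the 2-fold limit (log2 fold change 0.90). It had 345 and 321 CPM in GFP-negative cells, so the acute ECs were the lowest group.

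Slc25a25 encodes a calcium-regulated ATP-Mg/phosphate carrier, which sets the size of the adenine nucleotide pool in the matrix (chr2:32414487-32451445, minus strand). It had 17.5 and 30.1 CPM in acute ECs, 146, 137, 68.0, 64.8, 87.8 and 89.0 in WT wells 1 to 6, 123, 112, 82.1 and 78.3 in stabilized wells, and 30.5 and 23.4 in GFP-negative cells. The lowest culture well was above each uncultured library, and the wells of method A were the highest. Against acute ECs the log2 fold change in WT culture was 2.05 ± 0.46 (adjusted p = 0.00682). Without acute replicate 1 it was 1.70 (adjusted p = 0.0609), and with wells summed the call held (adjusted p = 0.0265).

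Slc25a17, the peroxisomal carrier of coenzyme A, NAD and FAD (chr15:81318911-81360812, minus strand), had 9.99 and 14.5 CPM in acute ECs and 47.2, 44.6, 63.9, 67.1, 51.2 and 56.3 in WT wells. In stabilized wells it had 35.0, 35.1, 48.9 and 47, and in GFP-negative cells 30.1 and 20.2. Each culture well was above each acute library. The log2 fold change was 2.16 ± 0.32 (adjusted p = 0.00104), and the call held without either acute replicate and with wells summed (adjusted p = 0.0165).

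Slc25a51 brings NAD into the matrix (chr4:45395923-45408766, minus strand). It had 178 and 163 CPM in acute ECs against 68.4, 79.4, 65.7, 63.4, 117 and 110 in WT wells, 83.4, 86.4, 108 and 109 in stabilized wells, and 58.3 and 65.4 in GFP-negative cells. The acute libraries were the highest of the 14. Its log2 fold change in WT culture was -1.03 ± 0.31 (adjusted p = 0.0254), just past the fold limit, and it missed the adjusted p without either acute replicate (0.0884 without replicate 1 and 0.0559 without replicate 2) and with wells summed (0.158).

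**Figure D2:**
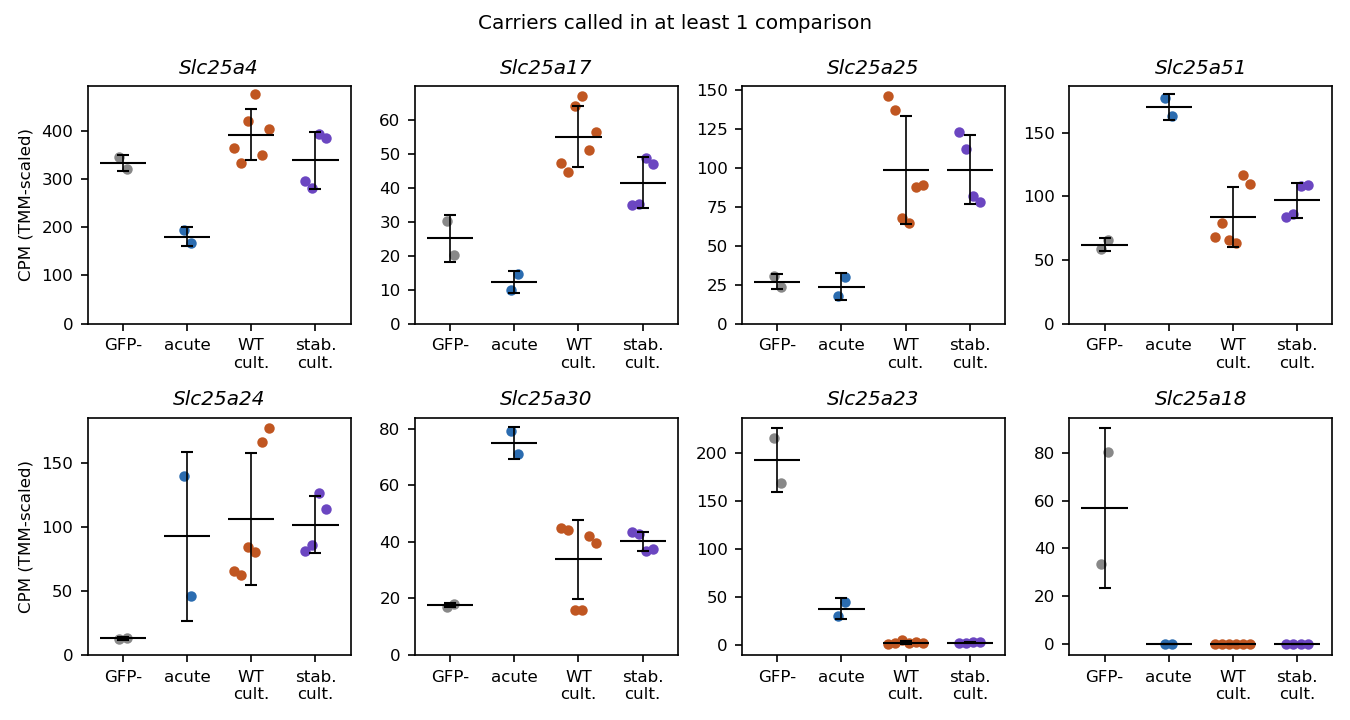
CPM of the 8 members called in at least 1 comparison, per library (points), with the group mean (line) and SD (bar), in GFP-negative cells, acute ECs, WT cultures and stabilized cultures. Slc25a17, Slc25a25 and Slc25a4 have all WT wells above the acute libraries, Slc25a51 has all WT wells below them, and the wells of the stabilized cultures lie within the range of the WT wells apart from the method A wells of Slc25a17 and Slc25a4 and well 1 of Slc25a18.

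Beyond these calls, 11 members passed the adjusted p but were below the TPM minimum in a replicate of the higher group. In all, 15 of 40 members (37.5%) passed it, 10 higher and 5 lower, against 45.2% of all genes (23.9% higher and 21.3% lower). With the wells of an experiment summed, 6 members passed (3 higher and 3 lower), against 3911 of 14051 genes (2109 higher and 1802 lower). Without acute replicate 2, which leaves 1 acute library, the members' median log2 fold change was 0.318, against 0.128 over all genes. The values that follow are again from all 8 libraries. At an unadjusted p under 0.05, 19 members passed, against 53.6% of genes. The median log2 fold change of the 40 members was 0.353, against 0.0964 over all genes tested, and 24 of them were above 0, against 52.0% of all genes. On CPM, 15 members had all WT wells above both acute libraries and 10 had all below, where 29.4% and 27.1% of all genes did.

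Among carriers of di- and tricarboxylates, aspartate and glutamate, 3 of 6 tested passed the adjusted p, all higher in culture. They were Slc25a13 (citrin, an aspartate-glutamate exchanger), with 1.71 and 0.528 CPM in acute ECs and 5.15 to 9.29 in WT wells (median 5.83; log2 fold change 2.52), Slc25a22 (a glutamate carrier), with 2.68 and 1.56 against 3.82 to 21.4 (median 10.5; 2.45), and Slc25a10 (the dicarboxylate carrier), with 4.62 and 5.17 against 9.52 to 32.6 (median 13.1; 1.89). None of them overlapped between the groups. Slc25a13 alone passed without either acute replicate and with wells summed (adjusted p = 0.0485); Slc25a22 missed in each case (0.105, 0.184 and 0.0587), as did Slc25a10 (0.162, 0.135 and 0.0638). Slc25a12, the aspartate-glutamate carrier of brain and muscle, had 92.3 and 33.2 CPM in acute ECs and 36.1 to 53.3 in WT wells, a log2 fold change of -0.49 that did not pass.

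Of 8 carriers of amino acids, carnitine and glutathione tested, the basic amino acid carrier Slc25a29 alone passed the adjusted p (log2 fold change 1.97; 1.87 and 0.990 CPM against 3.85 to 8.82). Slc25a20, the carnitine-acylcarnitine carrier of fatty acid oxidation, had 56.4 and 22.8 CPM in the acute replicates and 46.1 to 69.6 in WT wells, Slc25a39 had a log2 fold change of 1.44 with an adjusted p of 0.101, and Slc25a38, which supplies glycine for heme synthesis, had 5.92 and 11.4 CPM against 12.9 to 18.0 (adjusted p = 0.0651). Slc25a29, Slc25a38, Slc25a39 and Slc25a44 had all WT wells above both acute libraries and Slc25a2 all below, whereas Slc25a15, Slc25a20 and Slc25a40 overlapped.

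Of the cofactor and nucleotide carriers, Slc25a17 passed the adjusted p as higher, and Slc25a51, Slc25a42 and Slc25a32 as lower in culture. Slc25a42, the coenzyme A carrier, had 57.8 and 24.8 CPM in acute ECs and 1.56, 1.28, 10.7, 9.47, 4.57 and 3.13 in WT wells, so no culture well came near the acute level. Its log2 fold change was -3.02 ± 0.74 (adjusted p = 0.0100). Its lowest deposited acute TPM of 4.40 was just under the minimum, whereas its lowest rescaled acute TPM was 10.9. Without acute replicate 1 the log2 fold change was -2.27 and missed the adjusted p (0.108). Slc25a32, which carries folate and FAD, had 48.0 and 73.7 CPM against 24.1 to 32.6 and a log2 fold change of -1.16, or -0.84 without acute replicate 2 (adjusted p = 0.0555). Slc25a33 and Slc25a36, carriers of pyrimidine nucleotides, did not pass.

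Slc25a23, another calcium-regulated ATP-Mg/phosphate carrier (chr17:57043711-57059863, minus strand), had the lowest fold change of the family. Its 29.9 and 45.2 CPM in acute ECs stood against 0.698, 1.74, 4.87, 2.27, 2.62 and 1.52 in WT wells and 1.75, 2.17, 2.68 and 2.75 in stabilized wells. No culture well reached a level near that of acute ECs, with a log2 fold change of -4.03 ± 0.55 (adjusted p = 0.000743). Slc25a23 was not called, as its lowest deposited acute TPM was 3.48, whereas its lowest rescaled acute TPM was 10.8. The third gene of this kind, Slc25a24, had 140 and 45.9 CPM in acute ECs and 62.2 to 177 in WT wells (median 82.6), which overlapped.

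Of the iron carriers, Slc25a37 (mitoferrin-1, which supplies iron for heme in erythroid cells; chr14:69241848-69285112, minus strand) had 19.2 and 140 CPM in acute replicates 1 and 2, 12.7 and 37.7 in GFP-negative cells, and 13.4, 13.8, 3.57, 3.30, 17.2 and 15.4 in WT wells. Acute replicate 2 stood far above every other library, and replicate 1 lay close to the highest WT wells. The log2 fold change in WT culture was -2.83 ± 0.74 (adjusted p = 0.0135), and without acute replicate 2 it was -0.83 (adjusted p = 0.466). The erythroid marker sum was 16892 TPM in acute replicate 1 and 101404 in replicate 2, 5170 and 42861 in GFP-negative replicates 1 and 2, and at most 2.45 in cultures. Its part in the Slc25a37 result was not tested, and in bulk RNA fewer cells of a type cannot be told apart from less RNA per cell. Slc25a28 (mitoferrin-2, the form of other tissues) had 4.95 and 10.5 CPM in acute ECs and 7.83 to 15.4 in WT wells and did not pass.

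No uncoupling-protein-like carrier passed. Slc25a30 had 79.1 and 71.0 CPM in acute ECs and 45.1, 44.2, 16.1, 16.1, 42.3 and 39.7 in WT wells, all below the acute libraries (log2 fold change -1.15 ± 0.44, adjusted p = 0.0606). Slc25a46, the outer membrane member that acts in mitochondrial shape, had a log2 fold change of 0.43. Among the orphan carriers Slc25a47 (3.27) and Slc25a43 (2.36) passed the adjusted p from low levels, Slc25a47 at 0.201 and 0 CPM in acute ECs and Slc25a43 at 0.786 and 0.176.

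The length of the transcripts to which reads were assigned weighed on these calls. With an offset for each gene's effective transcript length, the number called was 4 higher (Slc25a4 at 1.30, Slc25a46 at 1.29, Slc25a44, a branched-chain amino acid carrier, at 1.18 and Slc25a17 at 1.09) and 0 lower, beside 12.9% and 13.2% of all genes. Slc25a25 then had a log2 fold change of 1.45 (adjusted p = 0.0535), Slc25a51 had -0.08 (adjusted p = 0.882), and Slc25a32 turned from -1.16 to 0.76 (adjusted p = 0.118).

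**Figure D3:**
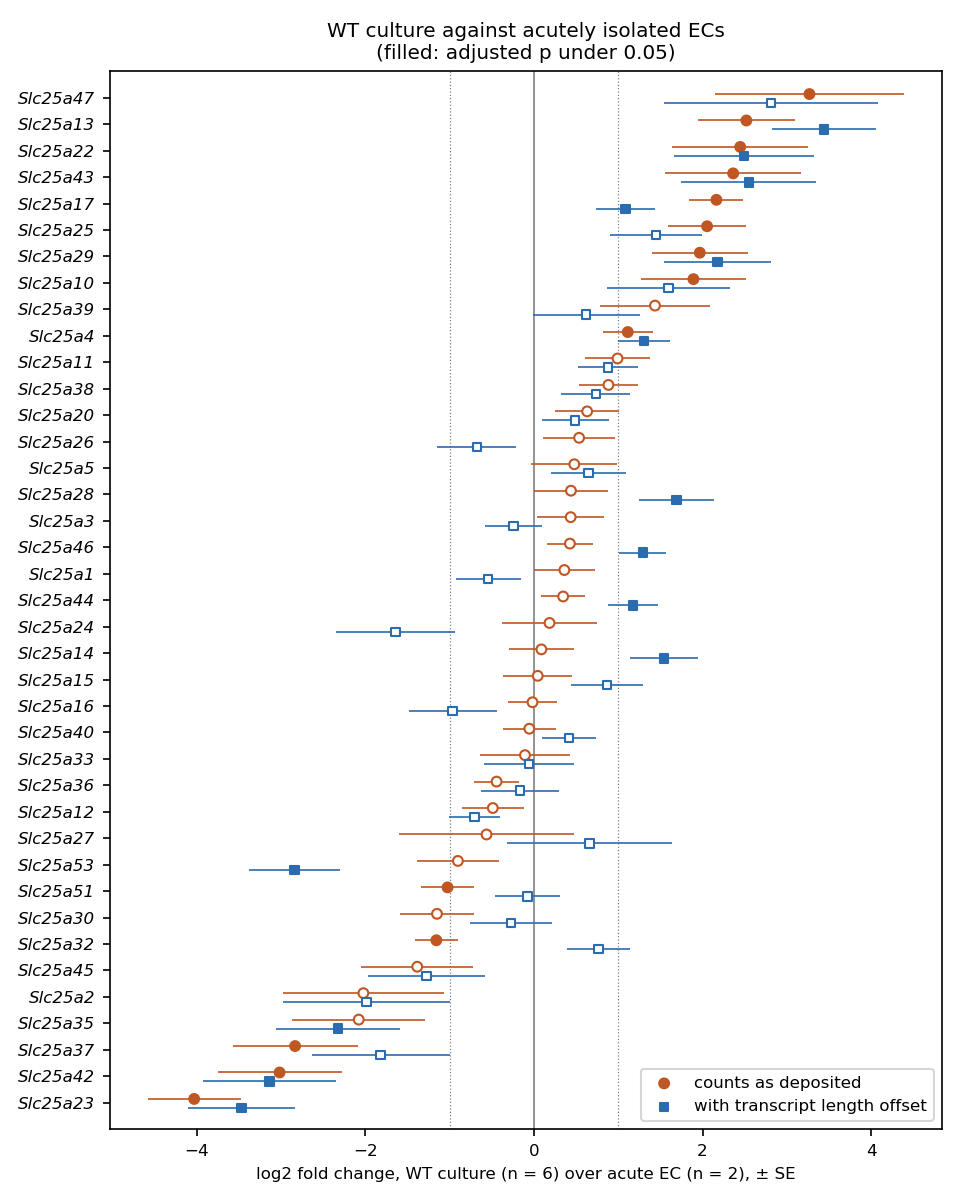
Log2 fold change ± SE of 39 tested members in WT cultures against acute ECs, from the counts as deposited and with the transcript length offset; filled points had an adjusted p under 0.05. Slc25a13, Slc25a22, Slc25a17 and Slc25a4 are above 0 and Slc25a23 and Slc25a42 below 0 in both, whereas Slc25a51 moves to near 0 and Slc25a32 crosses it.

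In acute ECs more of the RNA of these genes was assigned to transcripts that encode no full protein. Over the 35 members with a mean of at least 5 TPM, the median share of TPM in protein-coding transcripts was 88.7% and 87.7% in the acute libraries, 93.4% and 92.4% in GFP-negative cells, and 95.2% to 99.6% in WT cultures. Members under 50% numbered 9 and 11 in the acute libraries and 2 to 5 in WT cultures. These shares were taken over members alone and not over all genes, so they do not show a trait particular to the carriers. The sorted and cultured cells were also read at different lengths, and the part of this in the shares was not tested. For Slc25a24 the transcript Slc25a24-202, annotated as a target of nonsense-mediated decay, took 96.3% and 62.3% of the gene's TPM in the acute libraries and at most 2.22% in any culture. For Slc25a17 the decay target Slc25a17-207 took 44.3% and 71.1% in acute ECs and 0 to 5.92% in cultures. Counting protein-coding transcripts alone, 2 members were called higher (Slc25a17 at 3.52 and Slc25a25 at 2.0) and 2 lower (Slc25a30 at -1.37 and Slc25a51 at -1.24), beside 13.9% and 10.5% of all genes, so the 2 alternatives moved Slc25a17 in opposite ways and left its direction.

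**Figure D4:**
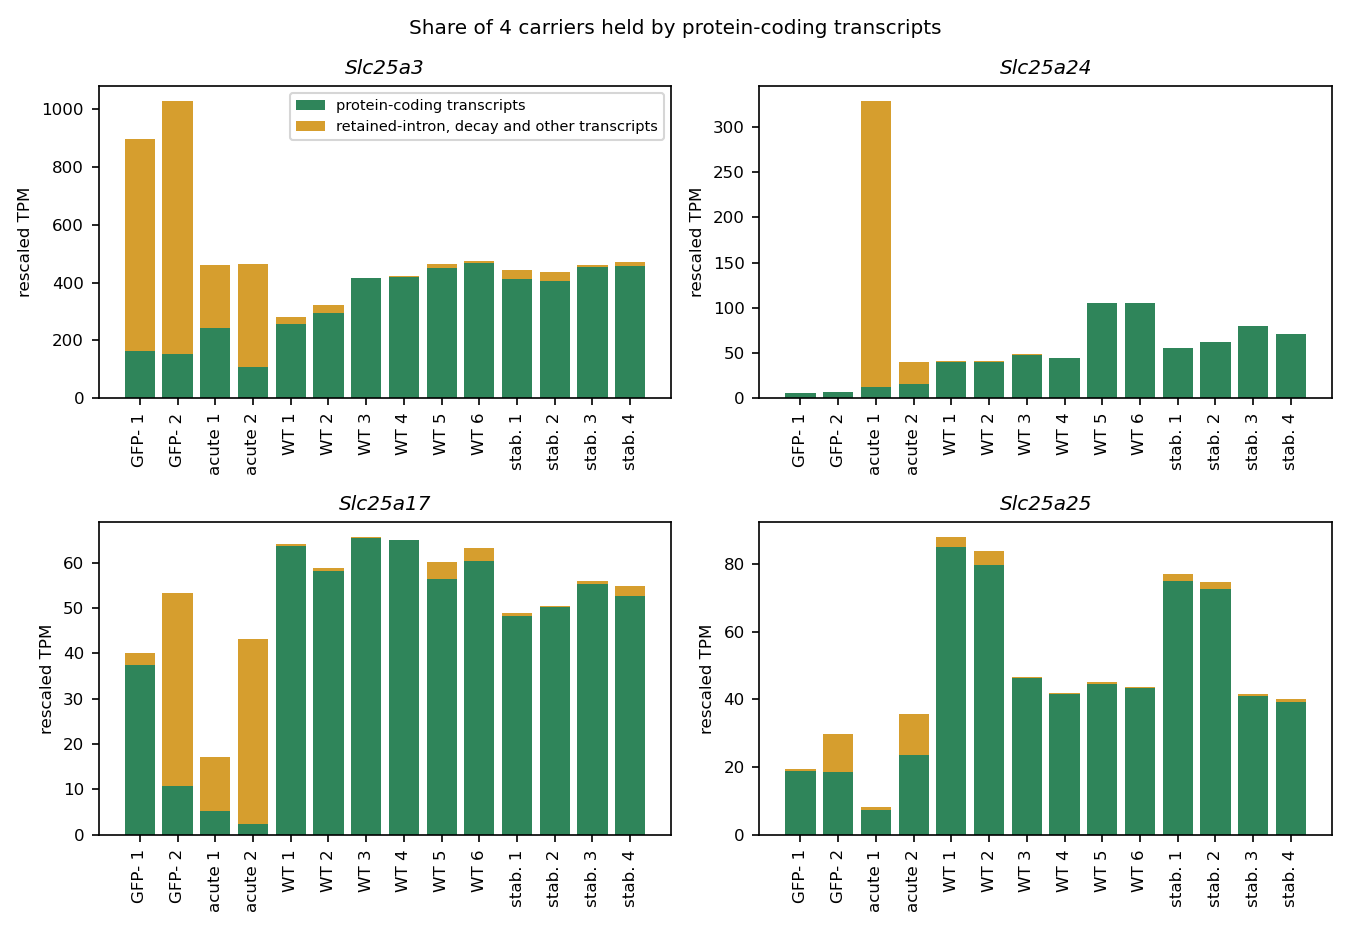
Rescaled TPM of Slc25a3, Slc25a24, Slc25a17 and Slc25a25 in each library, split into protein-coding and other transcripts. The other transcripts hold a large part of the bar in the acute libraries for Slc25a3, Slc25a24 and Slc25a17, and a small part in the cultures.

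Slc25a3 (chr10:91116574-91124059, minus strand) is known for a pair of alternative exons, 1 of which is used in heart and skeletal muscle. The annotation holds an upstream exon of 125 bases (chr10:91122207-91122331) and a downstream exon of 122 bases (chr10:91121922-91122043). They are shown to make plain how close the choices are, read 5′ to 3′ on the minus strand of GRCm38, with the 77 of 122 aligned bases (63.1%) that are identical in capitals.
Slc25a3 upstream exon: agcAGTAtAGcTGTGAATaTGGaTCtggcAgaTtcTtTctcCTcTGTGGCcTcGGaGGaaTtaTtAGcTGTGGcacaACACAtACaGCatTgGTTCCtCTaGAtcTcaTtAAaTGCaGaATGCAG
Slc25a3 downstream exon: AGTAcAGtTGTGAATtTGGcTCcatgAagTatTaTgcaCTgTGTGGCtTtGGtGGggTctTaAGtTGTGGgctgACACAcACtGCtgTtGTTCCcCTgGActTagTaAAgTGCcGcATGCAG
The estimated share of the upstream exon, among TPM of transcripts that hold either, was 0 in the acute and GFP-negative libraries, 0.806%, 2.21%, 0.823%, 0.535%, 2.49% and 1.89% in WT wells 1 to 6, and 5.07%, 4.40%, 1.65% and 2.16% in stabilized wells. The downstream form was thus the main one in every library, and the stabilized wells of method A had the highest share of the upstream exon. Transcripts with either exon made up 53.0% and 23.1% of the gene's TPM in the acute libraries and 18.3% and 14.7% in GFP-negative ones. In WT wells they made up at least 91.2%, so the acute and GFP-negative shares rest on a part of the signal. A transcript with a retained intron held 37.9% to 63.4% of Slc25a3 TPM in acute ECs and 52.4% to 65.6% in GFP-negative cells.

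Acute ECs against GFP-negative cells asks which carriers mark brain ECs among brain cells. Of 15116 genes tested, 8.28% were called higher and 7.55% lower in acute ECs. Of 43 members tested, 3 were called higher (Slc25a24, Slc25a30 and Slc25a51) and 2 lower (Slc25a18 and Slc25a23). The acute libraries are those used above, so the comparisons share them. In addition Slc25a32 passed the adjusted p upward (log2 fold change 2.76; 9.85 and 8.31 CPM in GFP-negative cells against 48.0 and 73.7), and Slc25a22, Slc25a21 and Slc25a34 downward, all 4 under the TPM minimum. In all, 9 of 43 passed, 4 higher and 5 lower, against 29.6% of all genes (9.90% higher and 19.7% lower), and 14 had an unadjusted p under 0.05, against 40.9%. The members' median log2 fold change was -0.17, against -0.06 over all genes, and 19 were above 0, against 48.4%. On CPM, 12 members had both acute libraries above both GFP-negative ones and 18 had both below, where 30.3% and 37.8% of all genes did. With the length offset 1 member was called higher (Slc25a24) and 1 lower (Slc25a18), beside 4.32% and 5.93% of genes, and with protein-coding transcripts alone 2 were higher (Slc25a30 and Slc25a51) and 2 lower (Slc25a18 and Slc25a23), beside 6.21% and 7.15%.

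Slc25a24 (chr3:109123149-109168457, plus strand) had 12.3 and 13.6 CPM in GFP-negative cells and 140 and 45.9 in acute ECs. Both acute libraries lay above both GFP-negative ones, and they were far apart from each other. The log2 fold change was 2.86 ± 0.62 (adjusted p = 0.0194). Without acute replicate 1 it was 1.72 (adjusted p = 0.0576), and with protein-coding transcripts alone it was 1.57 (adjusted p = 0.0606); the decay target named above held most of its acute TPM.

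Slc25a30 (chr14:75760117-75787037, minus strand) had 17.2 and 18.1 CPM in GFP-negative cells and 79.1 and 71.0 in acute ECs, with little spread in either group. Its log2 fold change was 2.11 ± 0.40 (adjusted p = 0.0126). Slc25a51, with 58.3 and 65.4 CPM against 178 and 163, rose by 1.48 ± 0.32 on the log2 scale (adjusted p = 0.0188). Each GFP-negative replicate was also left out in turn, which leaves 1 library in that group. The members' median log2 fold change was then -0.34 without replicate 1 and -0.002 without replicate 2. Over all genes it was -0.02 and -0.01. The calls upward rest on both GFP-negative libraries.

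Slc25a18, a mitochondrial glutamate carrier (chr6:120773578-120794336, plus strand), had 33.4 and 80.5 CPM in GFP-negative cells and 0 in both acute libraries. Against a floor of 3 counts per library (0.066 CPM) for acute ECs, the mean of the GFP-negative libraries was 863-fold higher. The lower of these libraries, at 33.4 CPM, stood less far above that floor. The difference between the groups passed the edgeR test (adjusted p = 0.00252). In the cultures Slc25a18 was at most 0.115 CPM. Astrocyte markers summed to 2567 and 4035 TPM in GFP-negative cells and to 1444 and 187 in acute ECs. Slc25a23 had 216 and 169 CPM in GFP-negative cells against 29.9 and 45.2 (log2 fold change -2.34 ± 0.38, adjusted p = 0.00816), where neuron markers (5 of 5) summed to 514 to 670 TPM and 52.4 to 90.01. The part of these cell types in the 2 results was not tested.

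Stabilized against WT cultures asks whether removal of the Ctnnb1 exon shifts the carriers of cultured ECs. The study found genes regulated by beta-catenin still very low in these stabilized cultures and took this to imply that signalling was not activated. The comparison therefore does not show how the carriers respond to such signalling. Of 12971 genes tested, 0 were called by edgeR in either direction (background 0%) and 11.0% had an unadjusted p under 0.05. DESeq2 called 13 higher and 3 lower of all genes, and 0 members. Of 39 members tested, 0 passed the adjusted p and 2 had an unadjusted p under 0.05, Slc25a17 (log2 fold change -0.46 ± 0.18) and Slc25a46 (-0.43 ± 0.18). All 39 overlapped between the groups on CPM, where 3.36% of genes lay above and 2.50% below without overlap. The members' fold changes ran from -0.93 to 0.21 with 6 above 0 and a median of -0.22, where the median of all genes was -0.07 and 44.3% were above 0. The size of this lean depended on the wells used. Without WT well 4, 3 members were above 0, against 5726 of 13000 genes, and with the replicate block 10, against 6717 of 12793. Over the 36-cycle wells 12 were (median -0.05), against 6182 of 12934 genes (median -0.02). With a term for method over those wells 16 were (median -0.04), against 6698 of 12934 (median 0.01). With the replicate number as a block, 150 genes were called higher and 40 lower, and again 0 members. WT wells 5 and 6 have no partner and do not enter that estimate. For numbers 3 and 4 the block sets stabilized wells read with 36 cycles against WT wells read with 150.

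The WT group of 6 wells mixes experiments that differ among themselves, which bounds what that comparison can show. Within method B, wells read with 150 cycles had over 2-fold higher mean CPM than those read with 36 for 6 of 40 members, Slc25a35 (6.35-fold), Slc25a10 (3.19), Slc25a39 (3.11), Slc25a42 (2.58), Slc25a45 (2.51) and Slc25a29 (2.19), and over 2-fold lower for Slc25a37, Slc25a30 and Slc25a24. That is 22.5% of members, against 35.65% of 13798 genes. At 36 cycles, method A over method B gave over 2-fold differences for 7 members (17.5%, against 29.37% of genes), with Slc25a45 5.56-fold and Slc25a27 3.92-fold higher. These are ratios of 2 wells to 2 wells, with no test.

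With a term for method, over the 36-cycle wells alone, 3 members passed the adjusted p, all lower in stabilized wells: Slc25a17 (-0.30, adjusted p = 0.0410), Slc25a46 (-0.25, 0.0413) and Slc25a36 (-0.25, 0.0361), beside 9.03% of genes higher and 8.57% lower. Slc25a17 had 47.2 and 44.6 CPM in WT and 35.0 and 35.1 in stabilized wells of method A, and 51.2 and 56.3 against 48.9 and 47 in method B. Stabilized wells were the lower pair in either method, by less than 2-fold.

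The change with stabilization differed between the methods for 17 of the 39 members (43.6%; adjusted p under 0.05 for the interaction), 9 with a higher and 8 with a lower change in method B, beside 51.7% of all genes (25.1% and 26.6%). Slc25a45, an orphan carrier, had the largest difference: 25.3 and 25.1 CPM in WT against 19.1 and 15.1 in stabilized wells of method A, and 4.13 and 4.75 against 8.02 and 8.81 in method B. It was thus lower in stabilized wells by one method and higher by the other. Slc25a38 had 18.0 and 17.5 against 10.9 and 10.4 in method A and 12.9 and 13.6 against 13.8 and 15.3 in method B. Slc25a22 had 4.13 and 3.82 against 8.31 and 8.43 in method A and 11.3 and 9.63 against 10.9 and 8.93 in method B. It was higher in stabilized wells by method A, and the wells overlapped by method B. Slc25a24 had 65.4 and 62.2 against 81.0 and 85.7 in method A and 166 and 177 against 127 and 114 in method B. For Slc25a45, Slc25a22 and Slc25a24 the stabilized wells of the methods were closer to each other than the WT wells were.

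In method A alone 5 members were higher and 9 lower at an adjusted p under 0.05 (29.2% and 26.7% of all genes), and in method B alone 7 were higher and 4 lower (19.5% and 17.6%). None of these was called with the fold and TPM limits. With wells of 1 pool as replicates, the spread in these fits is that between wells.

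**Figure D5:**
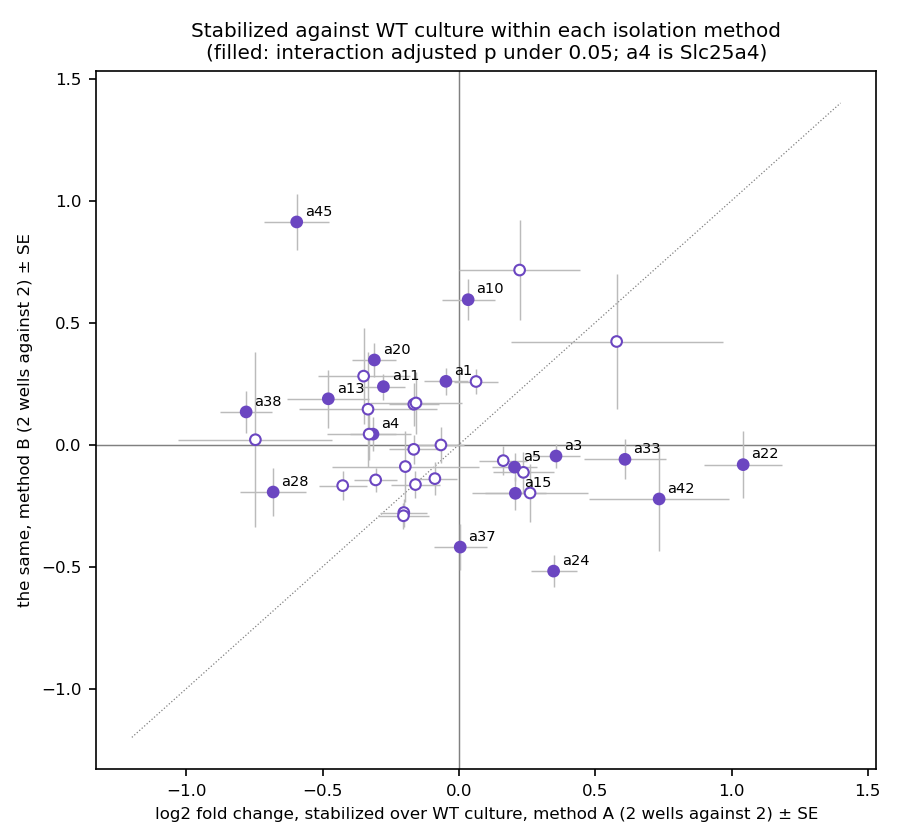
Log2 fold change of stabilized over WT wells in method A (horizontal axis) and method B (vertical axis) for 38 members, with SE bars; filled points are the 17 members whose change differed between methods. Slc25a45 is below 0 in method A and above 0 in method B, and Slc25a24 is the reverse.

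Most carriers had an open chromatin peak at the start site in each library. A peak within 500 bases of the start was present for 38 to 42 of the 47 members per ATAC library, against 48.2% to 59.2% of genes. It was present in all 10 libraries for 38 members and in none for 5 (Slc25a2, Slc25a31, Slc25a41, Slc25a48 and Slc25a54), of which Slc25a41 and Slc25a48 also had no RNA in ECs. Slc25a43 had no peak in acute ECs, a peak in 5 of 6 WT libraries (fold enrichment over local background 4.94 to 7.53) and in both stabilized ones. Fold enrichment at the promoters of the called genes overlapped between groups: Slc25a4 had 14.9 and 15.5 in acute ECs and 11.8 to 21.5 in WT cultures, Slc25a17 14.7 and 15.3 against 11.9 to 22.4, and Slc25a25 11.8 and 12.7 against 8.73 to 14. Slc25a37 had 19.9 and 20.8 in acute ECs, above the 11.1 to 15.4 of WT and the 11.2 to 12.9 of stabilized cultures. Other promoters separated in the direction opposite to the sign of the RNA fold change, which did not pass the test for Slc25a45: the peak shared by Slc25a29 and Slc25a47 had 18.7 and 20.7 in acute ECs and 12.7 to 16.9 in WT cultures, Slc25a42 had 11.1 and 11.6 against 13.4 to 15.4, and Slc25a45 had 5.49 and 7.71 against 9.85 to 17.5. Fold enrichment depends on each library's depth and background, so it was given no test.

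More than 500 bases from the annotated gene start and within 10000 bases of a member, 9 members (19.1%) had a region open in all WT libraries and in no acute one, against 22.4% of genes, and 1 (2.13%) had a region open in acute ECs alone, against 8.16%. The acute region lay in Slc25a17 (chr15:81356696-81357093, fold enrichment 6.82 and 3.47). The 12 distinct culture regions included 1 at 7046 bases before the start of Slc25a25 (chr2:32458237-32458745, intergenic), with fold enrichment of 10.9, 7.43, 25.9, 25.7, 26.8 and 29.8 in WT libraries 1 to 6 and 19.8 and 21.8 in stabilized ones. Another lay in an intron of Slc25a24, 33020 bases past its start (chr3:109155813-109156525), with 12.1, 7.43, 17.6, 20.8, 23.5 and 26.7 in WT and 18.5 and 17.2 in stabilized libraries. Both had no peak in either acute library. Of the other regions, that in Slc25a53 (chrX:136992637-136993354) holds a second RefSeq promoter window of that gene and overlaps its UTR, and 1 in Slc25a21 (chr12:57159873-57160333) ends just short of a second RefSeq promoter window, so not all 12 lie away from every start. The 300 bases around their summits are shown on the plus strand of GRCm38 because they held AP-1 motifs (TGANTCA, both strands), in capitals.
Slc25a25 region (chr2:32458394-32458693): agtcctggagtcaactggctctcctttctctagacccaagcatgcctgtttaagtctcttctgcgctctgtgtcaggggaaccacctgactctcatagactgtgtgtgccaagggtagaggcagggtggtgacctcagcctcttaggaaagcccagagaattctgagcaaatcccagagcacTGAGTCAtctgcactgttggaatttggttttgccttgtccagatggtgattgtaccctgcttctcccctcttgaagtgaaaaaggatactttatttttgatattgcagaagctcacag
Slc25a24 region (chr3:109155940-109156239): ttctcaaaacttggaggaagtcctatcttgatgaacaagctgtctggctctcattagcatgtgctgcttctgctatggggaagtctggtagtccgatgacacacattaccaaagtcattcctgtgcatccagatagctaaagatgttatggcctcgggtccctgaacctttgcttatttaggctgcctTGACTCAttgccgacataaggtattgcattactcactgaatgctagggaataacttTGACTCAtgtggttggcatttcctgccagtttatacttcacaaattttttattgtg
An AP-1 motif was found in 5 of the 12 regions (41.7%), against 52.6% of 10207 culture-only regions, 5.88% of 3671 acute-only and 12.8% of 16919 shared ones, so the motif went with regions open in culture at large and no more so at the carriers.

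Slc25a25 has several promoters. The transcript Slc25a25-203, which starts inside the gene (chr2, position 32424005), held 37.2% and 32.3% of the gene's TPM in WT wells 1 and 2, 13.1% to 18.1% in wells 3 to 6, 25.9% and 26.4% in stabilized wells 1 and 2, and 23.8% and 21.7% in wells 3 and 4. The wells of method A in WT had the highest share. A peak at that start was present in acute ECs (8.84 and 7.76), WT cultures (7.02 to 12.1) and stabilized cultures (10.2 and 9.78). The 250 bases before the RefSeq start there, on the minus strand of GRCm38 (chr2:32424067-32424316), held 2 overlapping CRE cores (TGACG, both strands), in capitals.
Slc25a25 internal promoter: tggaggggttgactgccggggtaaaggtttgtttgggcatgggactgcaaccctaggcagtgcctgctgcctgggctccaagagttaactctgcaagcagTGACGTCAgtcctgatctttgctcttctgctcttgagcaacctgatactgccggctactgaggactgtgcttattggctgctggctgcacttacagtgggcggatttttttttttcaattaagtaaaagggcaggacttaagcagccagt

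RefSeq promoter windows of 300 bases were matched for 36 of the 47 members. The GC box (GGGCGG, both strands) was in 83.3% of them against 51.2% of 16470 genes, the E-box CACGTG in 19.4% against 9.19%, the ETS core CCGGAA in 33.3% against 21.6%, the CCAAT box in 52.8% against 42.0%, and the CRE core TGACG in 33.3% against 27.0%. The NRF1 palindrome, a motif found at genes for respiration, was in 5.56% against 7.47%, AP-1 in 5.56% against 8.17%, and the TCF/LEF core CTTTGA, the motif read by beta-catenin's partners, in 13.9% against 16.6%. The median GC content of the members' windows was 59.3%, against 57%. These are matches of letters, with no test.

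Genes that work with the carriers were counted in the same way, where 13.5% of all genes were called higher and 10.2% lower in WT culture. Of the TIM22 import genes, which insert carriers into the membrane, 8 of 13 were called higher in WT culture and 0 lower, led by Timm13 (log2 fold change 3.24), Timm8b (2.39), Timm10 (2.31) and Timm10b (1.95). Of the ATP synthase genes, which use the ADP and phosphate that carriers bring, 9 of 16 were called higher, led by Atp5l (3.57), Atp5e (3.30), Atp5j2 (3.09) and Atp5mpl (2.47). The list of one-carbon, proline and serine enzymes had 9 of 12 higher. It was led by Phgdh (7.63), the first enzyme of serine synthesis, and Mthfd2 (6.85), an enzyme of the mitochondrial folate pathway. The malate-aspartate shuttle enzymes had 2 of 4 higher (Got1 at 3.46 and Mdh2 at 2.76).

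Other inner membrane transporters had 5 of 19 higher, among them the calcium uniporter subunits Mcub (2.85), Smdt1 (2.37) and Mcu (1.77) and the serine transporter Sfxn1 (2.23). Heme and iron-sulfur synthesis had 3 of 14 higher (among them Urod and Nfs1), the carriers outside the symbol rule 1 of 3 (Mtch2, 2.66), and the regulators of mitochondrial biogenesis 1 higher (Esrra, 1.46) and 1 lower (Gabpa, -1.27) of 11. The outer membrane porins had 0 of 3 called, and the carnitine shuttle 1 of 5 lower (Cpt1a, which makes acylcarnitine, at -1.36). With the length offset the counts called higher were 7 of 13 for TIM22 import, 10 of 16 for ATP synthase, 7 of 12 for the one-carbon list, 6 of 19 for other transporters, 2 of 4 for the shuttle and 1 of 14 for heme and iron-sulfur synthesis (with 1 lower), beside 12.9% of genes higher and 13.2% lower. The biogenesis regulators then had 1 higher and 3 lower and the carnitine shuttle 2 lower, the porins had 0, and the carriers outside the symbol rule kept 1 of 3. Urod (0.59, adjusted p = 0.322), Nfs1 (0.0510) and Cpt1a (-0.59, 0.185) lost their calls.

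In acute ECs against GFP-negative cells, 0 of 13 TIM22 and 0 of 16 ATP synthase genes were called by edgeR, beside 8.28% of all genes higher and 7.55% lower. Ucp2 was higher (1.98), as were Sfxn3 (1.82), Gabpb1 (2.41), Alas1 (2.08) and Cpt1a (1.61). Lower were Sfxn5 (-4.84), Micu3 (-2.95), the porin Vdac1 (-1.10), Ppargc1a (-4.75), which encodes a coactivator of mitochondrial biogenesis, Got1 (-3.43), Mdh1 (-2.18), Cpt1c (-3.17) and, among the serine and one-carbon enzymes, Phgdh (-7.28), Psat1 (-3.41) and Mthfd1 (-2.11). With the length offset Sfxn3 (adjusted p = 0.0652), Gabpb1 (0.0586), Cpt1a (0.107), Micu3 (0.0564), Vdac1 (0.168) and Phgdh (0.0578) lost their calls and the others named kept theirs. In stabilized against WT cultures edgeR called 0 genes of any of these lists, as it called 0 of all genes. The change with stabilization differed between methods, as the log2 fold change in method B minus that in method A, with a higher value for 12 and a lower for 2 of 16 ATP synthase genes, for 7 and 2 of 13 TIM22 genes, 7 and 4 of 14 heme and iron-sulfur genes, 6 and 4 of 19 other transporters, 2 and 1 of 12 one-carbon genes, 1 and 4 of 10 biogenesis regulators, 1 and 3 of 4 shuttle enzymes, 1 and 1 of 3 porins, 0 and 1 of 5 carnitine shuttle genes, and 1 and 1 of 3 carriers outside the symbol rule, beside 25.1% and 26.6% of all genes.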

How the data were processed

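RNA was deposited as Salmon 0.14.0 quantifications of GENCODE M21 transcripts, with sequence, GC and position bias models. The authors' estimated counts and TPM per transcript were summed per gene ID here. Effective lengths were averaged with TPM as weights, and counts were rounded. Depth was 24284843 to 94686456 estimated counts per library. Some symbols (27) had several gene IDs, which were kept apart. ATAC-seq peaks had been called by the authors per library (HISAT2 2.1.0 to GRCm38, duplicates removed, MACS2 2.1.2) and deposited with score, fold enrichment (a ratio), −log10 p and −log10 q; a peak counted here at a fold over 2 and −log10 q over 2. Names and versions are from the submitters' processing notes and methods. The deposited p columns were used as a filter only.

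Tests were edgeR 4.0.16 quasi-likelihood fits (R 4.3.3) on TMM-scaled counts of the groups compared, after filterByExpr, with Benjamini-Hochberg adjustment over all genes; the interaction of stabilization and method was fitted on the 8 culture libraries of 36 cycles. The fits were tested on simulated data with known changes. CPM were TMM-scaled over all 14 libraries. Alternatives were DESeq2 1.42.0, library size scaling, no filter, a transcript length offset, no TPM minimum, leaving out each replicate, wells summed, the 36-cycle cultures alone, a method term and a replicate block; the rescaled TPM minimum, the protein-coding transcripts and the 36-cycle fit with no method term were added after the data were seen. Sequences were read from the RefSeq GRCm38.p6 genome and promoter table. All 46 member windows of that table matched the genome.

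Same-numbered wells of stabilized and WT cultures, which share an isolation method, deviated together (r = 0.277, 0.332, 0.288 and 0.316 over 12791 genes). Wells of the same method with different numbers did so as much (r = 0.322, 0.256, 0.266 and 0.334). These values thus show no pairing by number beyond the method, and the blocked count is given as an alternative only. The members and lists were chosen with earlier results of these data known. Genes were named by rule: all called members, the 6 of highest mean TPM, members whose change differed between methods and those at the limits with values, and from each list up to 4 called genes. Lists covered TIM22 import, ATP synthase, other inner membrane transporters, porins, biogenesis regulators, malate-aspartate shuttle, one-carbon, proline and serine enzymes, heme and iron-sulfur synthesis, carnitine shuttle and carriers outside the symbol rule. Values of 1 member and 1 list gene are not reported here; both remain in the counts, and the member is left out of the figures.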

Additional observations from a re-analysis of the deposited data

Results flagged for a closer look

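The change with stabilization differed between isolation methods A and B for 17 members, by the interaction term over 8 libraries of 36 cycles (edgeR, adjusted p under 0.05), beside 51.7% of all genes. As log2 fold change in method B minus that in method A, the difference was above 0 for Slc25a45 (1.51), Slc25a38 (0.91), Slc25a13 (0.67), Slc25a20 (0.66), Slc25a10 (0.56), Slc25a11 (0.51), Slc25a28 (0.49), Slc25a4 (0.36) and Slc25a1 (0.31). It was below 0 for Slc25a22 (-1.13), Slc25a42 (-0.97), Slc25a24 (-0.86), Slc25a33 (-0.66), Slc25a37 (-0.42), Slc25a15 (-0.40), Slc25a3 (-0.40) and Slc25a5 (-0.30). The WT wells of method A came from C57BL/6J mice and those of method B from Ctnnb1 flex3/+; Tie2-GFP mice, so method and control strain cannot be told apart.

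Slc25a18 stood out in stabilized well 1, with 0.115 CPM against 0.0207, 0.0211 and 0.0204 in the other wells, all near the level of single counts. It was the sole such case in 48 groups of 24 members, where chance flags about 1 in 20 groups.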

How the results depend on the processing

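Of 110 counts of members recomputed under alternatives, 89 stayed within 1.5 times the reported count and 21 did not; of 330 fold changes, 251 kept their side of the threshold, 78 lost it and 1 reversed, Slc25a32 in WT cultures against acute ECs with the length offset (0.76). For WT cultures against acute ECs, members called higher numbered 10 of 40 without the TPM minimum, against 3160 of 13798 genes. They numbered 5 with that minimum on rescaled TPM, against 2202 of 13798 genes. Without each WT well in turn they numbered 3, against 1757 to 1900 genes. Members called lower numbered 0 with library size scaling (1194 of 13798 genes) and the length offset (1816 of 13798). They were also 0 with wells summed (834 of 14051) and the 36-cycle cultures (1487 of 13741). They numbered 2 with DESeq2 (1629 of 17694) and with protein-coding transcripts (1427 of 13567). On rescaled TPM they numbered 4 (1833 of 13798), and without the TPM minimum 5 (2829 of 13798). Without each WT well in turn they numbered 0 or 1 (1328 to 1437 genes), with 0 without well 1, 3 or 4. For acute ECs against GFP-negative cells, the length offset gave 1 member called higher and 1 lower, against 653 and 897 of 15116 genes. Without the TPM minimum 5 members were called lower, against 2978 of 15116 genes. Leaving out any replicate there leaves 1 library in a group. The members' median log2 fold change then ran from -0.52 to -0.002, against -0.33 to -0.01 over all genes. Where the alternative itself does not show the cause, the cause was not tested. Library size scaling moved the median over all genes, as a log2 fold change, from -0.06 to -0.44 in acute ECs against GFP-negative cells and from 0.10 to 0.30 in WT cultures against acute ECs.

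In the other comparisons same-numbered libraries hardly deviated together (r = 0.062 and 0.008). The replicate block gave 3 higher and 2 lower members in acute ECs against GFP-negative cells, beside 1017 and 1052 of 15116 genes. In WT cultures against acute ECs it gave 3 higher and 1 lower, beside 2098 and 1779 of 13414 genes. This fit used WT wells 1 and 2 alone, and Slc25a10 was called in place of Slc25a4. The 2 libraries of each uncultured group limit what could be called there.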
